A study of Rattus norvegicus with 15 samples.

Results

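The ductus arteriosus and the aorta of newborn rats were compared 3 h after vaginal delivery, with 6 of the 15 arrays of a study of perinatal rat vessels. The members are the arrays titled as ductus and as aorta at 3 h, with each vessel hybridised once to chips A, B and C of the Affymetrix rat set. On chip A the title given to newborn aorta counts hours from coitum, but the description calls the animals newborns delivered vaginally, and the array was taken as newborn. The newborn ductus is the vessel of interest, and the newborn aorta, taken as the arch and the thoracic part, is the vessel it is set against. According to the labels both vessels were freed of tissue adhering to them and prepared in medium gassed with 12.5% oxygen. The other arrays hold fetal ductus and fetal aorta of day 19 of gestation, taken by caesarean section and prepared in medium with 2.5% oxygen, and ductus of day 19 fetuses from dams kept in 100% oxygen for 3 h, called the oxygen ductus here. Neither strain nor the number of animals behind an array is given in the labels, and whole vessel walls were used, so every array is a mixture of cell types.

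The ductus arteriosus joins the pulmonary artery to the aorta and carries blood past the lungs of the fetus. After birth, rising oxygen tension and falling prostaglandin let its smooth muscle contract and close the lumen, and the wall is then remodelled, while the neighbouring aorta goes on carrying blood. Oxygen sensing in ductal muscle has been tied to potassium channels and mitochondria, and its tone before birth to prostaglandin E2, prostacyclin and their receptors.

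Values are signal intensities as deposited, 1 array per vessel and chip, so no p-value can be given and every ratio compares 2 arrays. Signals under the pooled median of their chip, which was 149.8 for A, 241.7 for B and 243.0 for C, were raised to that floor before the log2 ratio of ductus over aorta was taken. A fold with 1 array under the floor is therefore a minimum. Each gene took the value of its brightest probe set, and a count of probe sets beside a gene gives those that shared its direction. A gene counted as measured when either array exceeded the floor. With 1 array under the floor, a gene could lean only toward the brighter array. For want of replicates, the error of a ratio was read from probe sets of the same gene, whose log2 ratios had a within-gene SD of 0.31 over 1993 genes with 4255 pairs of probe sets. Of those pairs, 95% differed by less than 0.89. The 8 Gapdh, beta-actin, hexokinase and ribosomal control probe sets above the floor on every newborn array varied between chips with a pooled SD of 0.14. These figures leave out the spread between animals and between RNA preparations. Gapdh controls had mean log2 ratios of -0.01 to 0.03, beta-actin controls 0.30 to 0.48 and the hexokinase control 0.52. The signal ratio of 3′ to 5′ Gapdh probe sets, a sign of RNA quality, was 1.26 to 1.49 in newborn ductus and 1.30 to 1.58 in newborn aorta. The oxygen ductus stood apart, with ratios of 1.69 to 2.49 for Gapdh and 2.54 to 3.26 for beta-actin, against 1.19 to 1.51 for beta-actin in the newborn vessels, and the part of this in its signals was not tested. The 5S ribosomal RNA control was 3.23-fold higher in newborn ductus (mean log2 ratio 1.69 ± 0.18, SD over 3 chips), against a mean log2 ratio of 1.36 in the fetal pair, and its part in the results below was not tested.

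Among 7528 measured genes, 94 were at least 2-fold higher in the newborn ductus (1.25%) and 89 at least 2-fold lower (1.18%). By probe set the counts were 178 higher (1.26%) and 180 lower (1.27%) of 14179. The median log2 ratio of all genes was -0.01, with 5% of genes below -0.62 and 5% above 0.63. Log2 signals of the 2 vessels correlated across probe sets at r = 0.97, 0.94 and 0.96 on chips A, B and C, a description of 2 arrays that share their probes. Where a gene 2-fold higher had further measured probe sets, 56 of 75 of those went the same way (74.7%), 21 of them by 1.5-fold or more (28% of the 75). For genes 2-fold lower it was 39 of 42 (92.9%), 22 of them by 1.5-fold or more (52.4%), and for genes under 2-fold 61.3% of 3393.

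**Figure D1:**
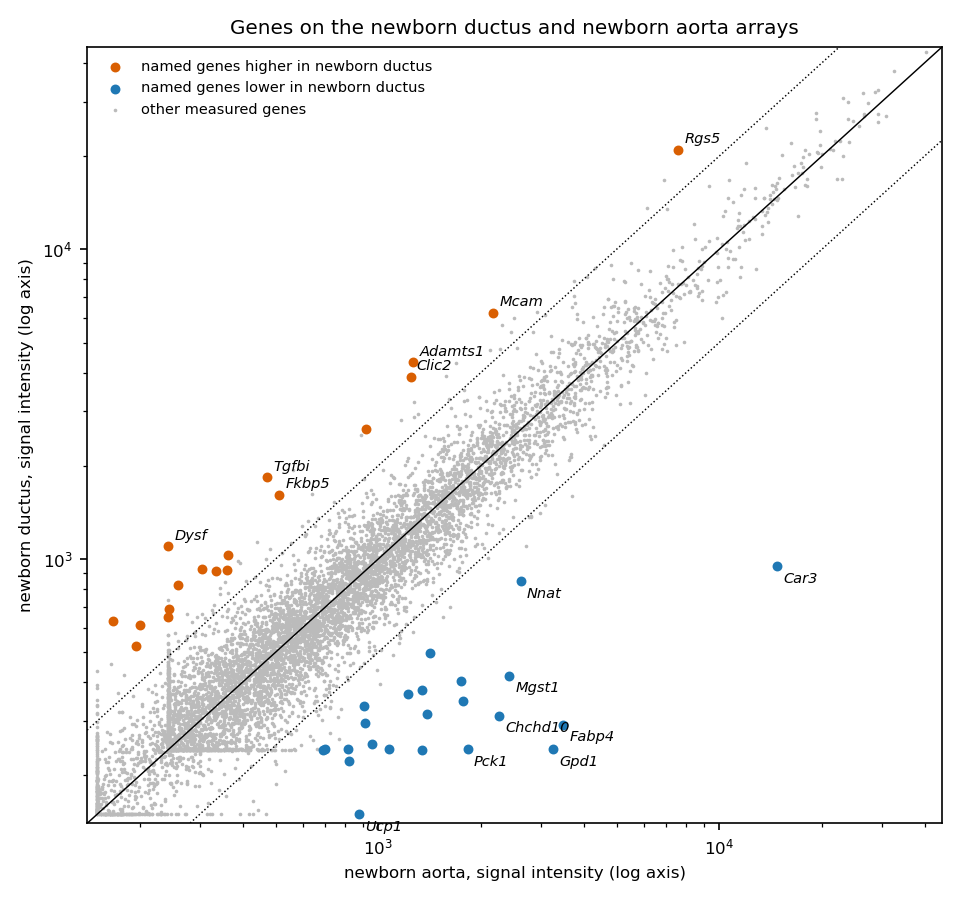
Signal of each measured gene on the newborn ductus array (vertical, log axis) against the newborn aorta array (horizontal, log axis), raised to the floor of its chip where lower, with the solid line at equality and dotted lines at 2-fold. Of the named genes, those farthest under the lower dotted line are Car3, Gpd1, Fabp4 and Pck1, while Rgs5, Mcam, Adamts1 and Tgfbi lie above the upper one.

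Smooth muscle genes were higher in the newborn ductus. In RNA of a whole vessel, fewer cells of a type and less RNA per cell cannot be told apart. Of 20 measured genes of the contractile filaments, 6 were at least 1.5-fold higher and 0 lower, with a median log2 ratio of 0.34; over all measured genes 6.16% were at least 1.5-fold higher and 5.98% lower. Actg2, the gamma smooth muscle actin, had signals of 16697 in newborn ductus, 6892 in newborn aorta, 10627 in fetal ductus, 5158 in fetal aorta and 12918 in oxygen ductus. It was 2.42-fold higher in the newborn ductus, the highest of the 5 arrays. Myh11, the smooth muscle myosin heavy chain, stood at 8143 in newborn ductus and 4080.3 in newborn aorta, with a log2 ratio of 1.00. Mylk, the myosin light chain kinase that starts contraction, was 1.93-fold higher, with signals of 13516 against 7005. Tpm2, a tropomyosin of the thin filament, was 1.89-fold higher, and Tagln (transgelin, an actin-binding protein of smooth muscle) 1.8-fold higher, with signals of 24564 in newborn ductus and 13678 in newborn aorta. Ppp1r12a, the myosin-binding subunit of myosin phosphatase, was 1.51-fold higher.

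Not every filament gene followed. Acta2, the smooth muscle alpha-actin, was the brightest of them, at 30805 in newborn ductus and 23050.2 in newborn aorta, and its log2 ratio of 0.42 is close to the within-gene SD. Cnn1, the smooth muscle calponin, was level at 3681 against 3702 (log2 ratio -0.01). The non-muscle myosin Myh9 had a log2 ratio of -0.29. The 4 probe sets of Tpm2 and the 3 of Myh11 did not all go the same way: 3 of 4 and 2 of 3 were higher in the ductus, as were 3 of 4 of Acta2.

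Proteins that anchor filaments to dense bodies and to the membrane had 31 measured members, 10 at least 1.5-fold higher and 1 lower, with a median log2 ratio of 0.27. Synpo2, an actin-bundling protein of smooth muscle, stood at 6009.8 in newborn ductus, 2502 in newborn aorta, 2966 in fetal ductus, 1249.5 in fetal aorta and 2989.6 in oxygen ductus, but its other probe sets were nearly level, with log2 ratios of 0.04 and 0.13. Sorbs2, an adaptor of stress fibres, was 3.05-fold higher (612 against 201), and the cell adhesion molecule Mcam 2.88-fold higher (6245 against 2171). The newborn ductus was the highest of the 5 arrays for each of these 3 genes. Itga8, an integrin subunit of smooth muscle, was 2.24-fold higher, and Pdlim3, a PDZ and LIM domain protein of the actin cytoskeleton, 2.21-fold higher. The other probe set of Itga8 had a log2 ratio of 0.27. Desmin (Des), the intermediate filament of muscle, was 1.76-fold higher (1446 against 822). Dysf, which acts in membrane repair of muscle, was at least 4.54-fold higher, but here the aorta was the odd array: signals were 1099 in newborn ductus, 206 in newborn aorta, 1017 in fetal ductus, 1167 in fetal aorta and 1102 in oxygen ductus, and only newborn aorta lay under the floor. Itga7, a laminin receptor of muscle, was the exception at 1.55-fold lower (529 against 818). By chip the list's median was 0.08 on A, 0.59 on B and 0.08 on C, and with the floor at the 25th percentile it was 0.15 in all.

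Regulators of muscle genes moved little, with 1 of 15 at least 1.5-fold higher, 0 lower and a median log2 ratio of 0.28. Klf4, a zinc finger factor that represses contractile genes in cultured smooth muscle, led at 1373 against 819 (1.68-fold higher), and its 3 probe sets all went that way. Mef2c was at 556 against 378, Gata6 at 3142 against 2298 and Tead1 at 1105 against 834. Srf, the factor that binds the CArG box of muscle genes, had a log2 ratio of 0.25.

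Promoter windows of 250 bases before to 50 after the start of each gene (RefSeq, build GRCr8) were searched on both strands for the CArG box, since it is the element shared by many contractile genes. It was found in 1 of 17 windows of the contractile list and in 2 of 23 of the anchoring list, against 1.64% of all 27457 windows and 1.42% of those of measured genes. No window was available for some members, Myh11 and Tagln among them, so these were not searched. The 3 matches are shown with 30 bases on each side, 5′ to 3′ on the gene's strand, with the CArG box in capitals. They belong to Cnn2, a calponin (log2 ratio 0.41, chr7:10370344-10370413, minus strand, match beginning 71 bases before the start), and to the LIM domain proteins Fhl1 (0.67, chrX:139638364-139638433, plus strand, 102 bases before) and Fhl2 (0.36, chr9:52954596-52954665, minus strand, 95 bases before).
Cnn2: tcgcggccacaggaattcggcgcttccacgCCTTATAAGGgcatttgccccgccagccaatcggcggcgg
Fhl1: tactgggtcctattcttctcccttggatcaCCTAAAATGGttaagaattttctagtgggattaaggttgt
Fhl2: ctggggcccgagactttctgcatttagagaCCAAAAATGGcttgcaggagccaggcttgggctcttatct
Of these 3 genes Fhl1 was at least 1.5-fold higher in the newborn ductus (18963 against 11939). A match describes the letters of the window and is not a site.

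Potassium channels had few measured members, 15 of 45 on the chips, but 4 of them were at least 2-fold higher in the newborn ductus and 1 at least 2-fold lower. Their median log2 ratio was 0.30, against -0.06 in the fetal pair. Abcc9 and Kcnj8, which encode the sulfonylurea receptor SUR2 and the pore Kir6.1 of the ATP-sensitive channel of vascular smooth muscle, were higher together. Abcc9 stood at 821 in newborn ductus, 259 in newborn aorta, 510.2 in fetal ductus, 352 in fetal aorta and 403 in oxygen ductus, a 3.17-fold higher signal in the newborn pair, and its 2 measured probe sets agreed in direction. Kcnj8 stood at 845 in newborn ductus, 355 in newborn aorta, 507 in fetal ductus, 394 in fetal aorta and 498 in oxygen ductus and was 2.38-fold higher. For both genes newborn ductus was the highest and newborn aorta the lowest of the 5 arrays. Kcnk3, a background channel that sets resting potential, was 2.27-fold higher (575 against 253). Kcna5, the voltage-gated Kv1.5 long studied in oxygen sensing of the ductus, was at least 2.23-fold higher, with signals of 335 in newborn ductus, 79 in newborn aorta, 299 in fetal ductus, 311 in fetal aorta and 260.1 in oxygen ductus. All arrays except newborn aorta held it above the floor. Kcnmb1, the beta subunit of the large calcium-activated channel, had a log2 ratio of 0.22. Kcne2, an accessory subunit, ran the other way (at least 2.02-fold lower).

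Genes that set contraction through second messengers showed no common shift. Of 35 measured, 7 were at least 1.5-fold higher and 1 lower, with a median log2 ratio of 0.16. Rgs5, a brake on G protein signalling in pericytes and arterial muscle, was bright at 20994 in newborn ductus, 7567 in newborn aorta, 9334 in fetal ductus, 2009 in fetal aorta and 12081 in oxygen ductus, and was 2.77-fold higher in newborn ductus. Pde5a, which degrades cyclic GMP, was 2.78-fold higher (459 against 165). Adcy6, an adenylyl cyclase that makes cyclic AMP, was 2.14-fold higher (778 against 363). Nos3, the endothelial nitric oxide synthase, had a log2 ratio of 0.71, but 3 of its 5 probe sets pointed up and the others down. The 1 gene at least 1.5-fold lower was Rnd3, which was 2.05-fold lower (1371.5 against 2812.3, 2 of 2 probe sets).

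Prostaglandin receptors held the lower values of the prostaglandin list. Ptgir, the prostacyclin receptor, stood at 165 in newborn ductus, 429 in newborn aorta, 206 in fetal ductus, 653 in fetal aorta and 176 in oxygen ductus, and was 2.6-fold lower in the newborn ductus and 3.17-fold lower in the fetal ductus. Each ductus array was under each aorta array. Ptger3, a receptor of prostaglandin E2, was at least 2.87-fold lower, the newborn ductus being the only array of the 5 under the floor (69.7, with the other arrays at 279 to 429). Ptger4, the receptor through which prostaglandin E2 relaxes the ductus, was dim throughout, at 120.0 in newborn ductus, 166 in newborn aorta, 145 in fetal ductus, 83.2 in fetal aorta and 124 in oxygen ductus, so the 2 vessels could not be told apart. The cyclooxygenases Ptgs1 (716 against 654) and Ptgs2 (162 against 123, newborn aorta under the floor) had log2 ratios of 0.13 and 0.12. Over the list 0 of 17 genes were at least 1.5-fold higher and 3 lower.

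Vasoactive peptides and their receptors differed gene by gene, 6 of 30 at least 1.5-fold higher and 1 lower (median log2 ratio 0.12). Gal, the precursor of the neuropeptide galanin, was 3.77-fold higher and highest in newborn ductus, at 629.7 in newborn ductus, 167 in newborn aorta, 209.6 in fetal ductus, 142 in fetal aorta and 278 in oxygen ductus. Edn1, the precursor of the constrictor endothelin-1, was 1.69-fold higher (672 against 398). The angiotensin receptors split: Agtr1a, the constrictor type 1 receptor, was 1.79-fold higher (1418 against 793, 4 of 4 probe sets), and Agtr2, the type 2 receptor, 1.55-fold lower (827 against 1278, 2 of 2 probe sets). Nppa, the atrial natriuretic peptide precursor, was at least 2.9-fold higher, at 435 against 15.5 and up on all 4 probe sets.

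Several secreted and matrix genes led the list of genes higher in the newborn ductus. Tgfbi, a matrix protein induced by TGF-beta, had the largest fold of those above the floor on both arrays, 3.88-fold higher, with signals of 1838 in newborn ductus, 473 in newborn aorta, 1189 in fetal ductus, 524 in fetal aorta and 1052 in oxygen ductus. Adamts1, a protease that cuts proteoglycans of the vessel wall, was 3.41-fold higher, at 4325 in newborn ductus, 1268 in newborn aorta, 1824 in fetal ductus, 694 in fetal aorta and 1746 in oxygen ductus. In both genes newborn ductus was the highest array, and each ductus array was above the aorta array of its own stage. Mmp16, a membrane-bound metalloprotease, was 2.67-fold higher (522 against 195), and Tnc, the matrix glycoprotein tenascin-C, 2.54-fold higher (983 against 387, 3 of 3 probe sets). The other probe sets of Tnc had log2 ratios of 0.65 and 0.19. Sfrp2, a secreted modulator of Wnt signalling, was 2.1-fold higher (7891 against 3761). Elastin (Eln) was bright and level, at 27373 against 29193, as was Jag1, a Notch ligand of the vessel wall (546 against 550.2). Elastic fibre and matricellular genes as a list gave 4 of 41 at least 1.5-fold higher and 4 lower, and collagens with basement membrane 4 higher and 4 lower of 35.

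On the aorta side of the matrix, Spp1 (osteopontin) was 2.05-fold lower in newborn ductus (1369 against 2801), Efemp1 (a fibulin) 2-fold lower (195 against 390.2) and Col8a1, a short-chain collagen of vessel walls, 2.47-fold lower (261 against 645). All 3 were also at least 2-fold lower in fetal ductus than in fetal aorta. Col15a1, a basement membrane collagen, stood at 579 in newborn ductus, 1266 in newborn aorta, 413 in fetal ductus, 364 in fetal aorta and 420.4 in oxygen ductus, with newborn aorta above every other array. Pcp4, a calmodulin-binding peptide, was 4.35-fold lower and followed vessel at each stage, with 403 in newborn ductus, 1750.0 in newborn aorta, 160.0 in fetal ductus, 864 in fetal aorta and 338 in oxygen ductus. Each aorta array of Pcp4 was above every ductus array.

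Genes that respond to glucocorticoids, hormones that surge around birth, held 3 of the larger differences although the list did not shift (4 of 25 at least 1.5-fold higher, 3 lower, median log2 ratio 0.12). Fkbp5, a co-chaperone of the glucocorticoid receptor and a standard target of it, stood at 1612 in newborn ductus, 511 in newborn aorta, 438 in fetal ductus, 347 in fetal aorta and 371 in oxygen ductus, 3.15-fold higher in the newborn ductus. Errfi1, a feedback inhibitor of the EGF receptor, was 2.22-fold higher at its brightest probe set (13626 against 6151) and higher on all 4, and Ddit4, an inhibitor of mTOR signalling, 2.46-fold higher (971 against 394). Mgst1 and Pck1, members of the same list, were the opposite: Mgst1, a glutathione transferase, was 5.76-fold lower (420.0 against 2421). Immediate early genes had 5 of 34 at least 1.5-fold higher and 1 lower, with a median log2 ratio of 0.26. Fos, read by 5 probe sets that all went up, stood at 2165 in newborn ductus and 1347 in newborn aorta, Klf2, a shear-stress factor of endothelium, at 1336 in newborn ductus and 715 in newborn aorta, and Zfp36, which destabilises cytokine RNA, at 1295 in newborn ductus and 766 in newborn aorta. Ccn1, a matricellular protein, was 1.86-fold lower. The median was 0.06 when the analysis was limited to probe sets whose design did not allow sharing between genes, and under 0.25 in 6 of the 7 other settings.

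Of 8 measured circadian clock genes 3 were at least 1.5-fold higher and 0 lower, with a median log2 ratio of 0.39. Cry2 and Per2, repressors of the clock, stood at 1527 against 959.5 and 549.8 against 360.3, and the labels used here do not give the hour of dissection. In the insulin-like growth factor system the binding protein Igfbp4 was 2.04-fold higher (3289 against 1612) and the growth hormone receptor Ghr at least 2.34-fold higher (351 against 29.8), while Igfbp2 was 1.74-fold lower (1114 against 1943, 3 of 3 probe sets). The growth factor Igf2 was bright and level (15280.1 against 14327), and the list's median log2 ratio was 0.28 over 16 genes. Tfap2b, the transcription factor whose mutation causes patent ductus in Char syndrome in humans, was at least 1.71-fold higher, with signals of 414 in newborn ductus, 127 in newborn aorta, 330.1 in fetal ductus, 141 in fetal aorta and 399.6 in oxygen ductus. All ductus arrays were above the floor for Tfap2b and all aorta arrays under it.

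Further genes far higher in the newborn ductus had varied roles. Clic2, of the chloride intracellular channel family, stood at 3879.5 in newborn ductus, 1244 in newborn aorta, 1796 in fetal ductus, 1788 in fetal aorta and 2261 in oxygen ductus, 3.12-fold higher, and newborn ductus was the highest array. Slc44a2, a choline transporter-like protein, was 3.06-fold higher (929.5 against 304, 2 of 2 probe sets), and newborn aorta was its lowest array, the fetal aorta being at 662. Its other probe set had a log2 ratio of 0.45. Ppp1r18, an actin-bound regulator of protein phosphatase, was 2.84-fold higher (1027 against 362), Fam168a 2.86-fold higher (2638 against 922) and Lrba, a protein of vesicle traffic, 2.57-fold higher (924 against 359). Pdlim4, a PDZ and LIM domain protein, was 2.74-fold higher in the newborn ductus (914 against 333, 2 of 2 probe sets) but 1.72-fold lower in the fetal ductus (509 against 875). The other probe set of Pdlim4 had a newborn log2 ratio of 0.24, under the within-gene SD. Of the genes with newborn aorta under the floor, Satb1, a chromatin organiser, was at least 2.84-fold higher, and Phf1, a partner of Polycomb proteins, at least 2.69-fold higher. The sodium pump subunit Atp1b1 was bright, at 4746 in newborn ductus, 2133 in newborn aorta, 5231 in fetal ductus, 1773 in fetal aorta and 5081 in oxygen ductus, and all of its 3 measured probe sets were higher in newborn ductus.

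Further genes far lower in the newborn ductus were the brain-associated Nnat (neuronatin), at 848 in newborn ductus, 2615 in newborn aorta, 1012 in fetal ductus, 1057 in fetal aorta and 959 in oxygen ductus, and Map2, a microtubule protein of neurons, 3.09-fold lower (295 against 914). Markers of nerve and chromaffin cells summed to 1057 in newborn ductus and 896 in newborn aorta, with 0 of 4 measured at least 1.5-fold apart. Coq8a, which acts in coenzyme Q synthesis, was at least 3.37-fold lower at its brightest probe set (243 against 818), the others having log2 ratios of -0.97 and -0.52, and Tfrc, the transferrin receptor that imports iron, at least 2.87-fold lower (159 against 697). The sequence assigned to the pseudogene Morf4l1-ps8 was at least 2.85-fold lower (107 against 689), and its signal may hold RNA of its parent gene, which these arrays cannot separate. Newborn ductus was the lowest of the 5 arrays for Map2, Nnat, Tfrc and Morf4l1-ps8.

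**Figure D2:**
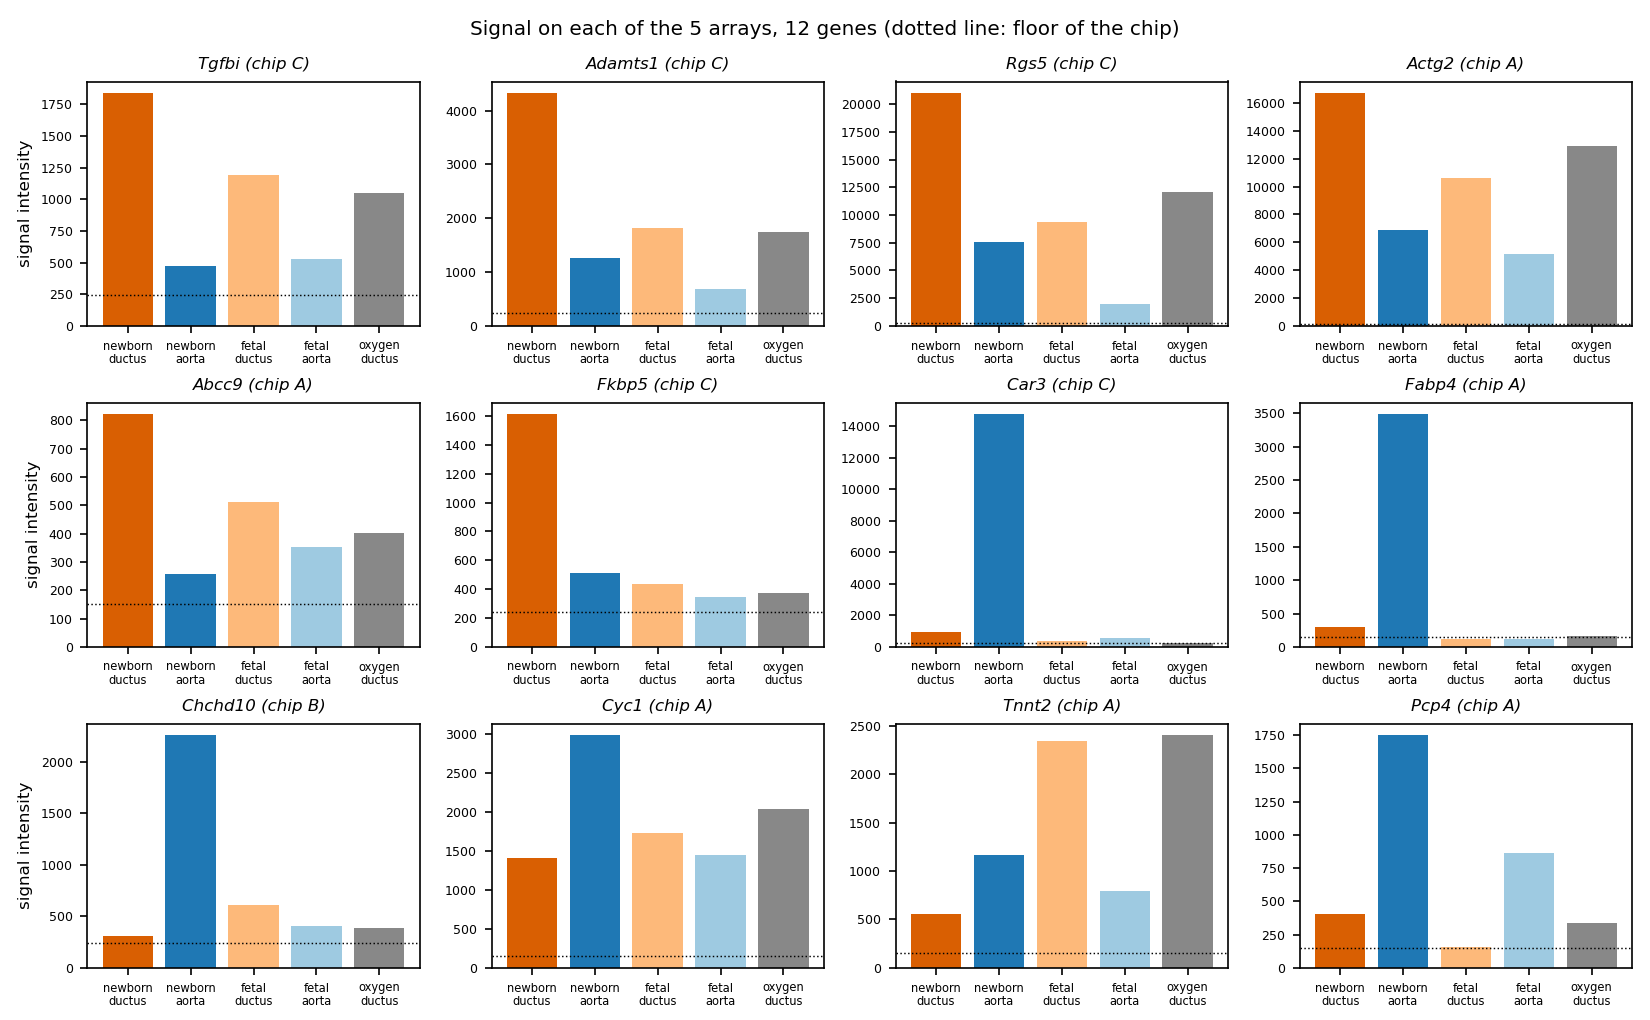
Signal intensity of 12 genes on the array of each state, 1 array per bar, with the dotted line at the floor of the chip. Fkbp5 is high in newborn ductus alone, Car3, Fabp4 and Chchd10 in newborn aorta alone, and Pcp4 in both aortas; Tnnt2 is highest in fetal and oxygen ductus.

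The largest differences of the pair were fat genes, and they were lower in the newborn ductus. Of 17 measured genes of adipocyte identity, 11 were at least 2-fold lower and 0 at least 1.5-fold higher, with a median log2 ratio of -1.39. In 6 of the 17, Ucp1, Pparg and Adipoq among them, 1 array lay under the floor, so these could lean only toward the brighter array. With the floor at the 65th percentile the median was -0.84 over 15 genes. Car3, a carbonic anhydrase abundant in fat and muscle, was 15.6-fold lower, with signals of 948 in newborn ductus, 14774 in newborn aorta, 367 in fetal ductus, 592 in fetal aorta and 235 in oxygen ductus. Fabp4, the fatty acid binding protein of adipocytes, stood at 292 in newborn ductus, 3489 in newborn aorta, 111 in fetal ductus, 123 in fetal aorta and 159 in oxygen ductus. For both genes newborn aorta was an order of magnitude above every other array. The brown fat genes Ucp1, the uncoupling protein that makes heat, and Cidea, a lipid droplet protein, were at least 5.85-fold lower (83.8 against 876) and 3.54-fold lower (378 against 1339). Pparg, the factor that directs adipocyte formation, was at 110.0 against 1343, and Adipoq, the hormone adiponectin, at 12.7 against 1075. Lpl, which frees fatty acids from lipoproteins, was 3.33-fold lower on all of its 3 probe sets (367 against 1223).

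The adipocyte markers summed to 4077 in newborn ductus and 10992 in newborn aorta, against 2822 in fetal ductus, 3357 in fetal aorta and 2411 in oxygen ductus. In newborn aorta 7 of 8 markers on the chips were above the floor, in newborn ductus 3 (Fabp4, Cidea and Lep) and in each fetal vessel 2. Adiponectin was nearly dark in the ductus at 12.7. The leptin gene Lep did not follow, at 3116 in newborn ductus and 2468 in newborn aorta. It stood at 2316 in fetal ductus, 2803 in fetal aorta and 1952.5 in oxygen ductus. Lep alone thus made up most of the marker sum in every vessel except newborn aorta.

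Genes of lipid synthesis and storage were lower alongside, 8 of 25 at least 1.5-fold lower and 1 higher (median log2 ratio -0.31). Gpd1, which makes glycerol phosphate for triglyceride, was at least 13.4-fold lower (198 against 3258), and Pck1, which feeds glyceroneogenesis, at least 7.53-fold lower (156 against 1829). Dgat2, which adds the last fatty acid to triglyceride, stood at 349 in newborn ductus, 1769.8 in newborn aorta, 471 in fetal ductus, 588 in fetal aorta and 487 in oxygen ductus. Srebf1, a regulator of fatty acid synthesis genes, was 2.57-fold lower (394 against 1013). Agpat2, another member of the list, was at least 2.84-fold lower (64.2 against 685.6). The fatty acid synthesis genes Fasn, Acaca and Acly differed little, with log2 ratios of -0.24, -0.11 and -0.09. Genes of fatty acid oxidation had 7 of 35 at least 1.5-fold lower and 2 higher (median -0.26). Acsl1, which activates fatty acids, was 3.69-fold lower (222 against 819.5), and Etfb, which passes electrons from their oxidation to the respiratory chain, 2.85-fold lower (498 against 1420.2). The members that ran the other way were Cpt1a, the carnitine transferase that admits fatty acids to mitochondria (825 against 469.9), and Pdk4, which shuts pyruvate dehydrogenase (769 against 343, 2.24-fold higher); the newborn ductus was the highest of the 5 arrays for Pdk4.

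Genes of the respiratory chain and the TCA cycle were lower in the newborn ductus as a group. Of 86 measured, 74 had a log2 ratio below 0, 19 were at least 1.5-fold lower and 0 at least 1.5-fold higher, with a median log2 ratio of -0.39. By chip the medians were -0.39, -0.47 and -0.37 over 50, 16 and 20 genes on A, B and C. The chips carry different probe sets and are not replicates. In the fetal pair the median was 0.08, with 3 genes at least 1.5-fold higher and 0 lower, where 4.2% of all genes were higher and 5.1% lower. Newborn ductus was the lowest of the 5 arrays for 40 of the 86 genes (23.7% of all measured genes) and newborn aorta the highest for 35 (20.4% of all). The size per gene was small, about that of the within-gene SD, and the shift lies in its number of genes.

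The shift ran through every complex of the chain. Complex I had a median log2 ratio of -0.39, with 29 of its 31 genes below 0, complex II -0.43 over 4 genes, and complex III with cytochrome c -0.54, with 8 of 8 below 0. Complex IV was at -0.33 over 11 genes, ATP synthase at -0.37 over 13, and the TCA cycle with pyruvate dehydrogenase at -0.47 over 15. Cyc1, the cytochrome c1 of complex III, stood at 1406 in newborn ductus, 2980.4 in newborn aorta, 1726 in fetal ductus, 1441 in fetal aorta and 2034 in oxygen ductus. Cox5b, a subunit of cytochrome oxidase, was 2.06-fold lower (1491 against 3077), and Ndufa8 and Ndufv1 of complex I were 1.84-fold lower (938 against 1721) and 1.8-fold lower (1115 against 2012). Idh3a, the NAD-linked isocitrate dehydrogenase, was 1.83-fold lower (360.1 against 658). Chchd10, a protein of the space between the mitochondrial membranes, had by far the largest difference, 7.24-fold lower, at 312 in newborn ductus, 2261 in newborn aorta, 611 in fetal ductus, 404 in fetal aorta and 392 in oxygen ductus; its other probe set had a log2 ratio of -0.32. Of other mitochondrial genes, chosen after their values were seen in the case of Hspd1, values were lower for Nfu1, which builds iron-sulfur clusters (335 against 907, 2.71-fold lower), and for the chaperone Hspd1 (2339 against 4587, 1.96-fold lower).

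Brown fat and heart muscle are rich in mitochondria, and markers of both were lower in the newborn ductus too, those of adipocytes as given above and those of heart muscle at a summed 7594 against 13247 in newborn aorta. Their part in the lower respiratory gene signals was not tested. In the fetal pair heart markers summed to 24332 in ductus and 9686 in aorta, and the respiratory median was the 0.08 given above. The stages also differed in the way of delivery and in the oxygen of the medium, and a link between these values was not tested.

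Since these genes moved together, their promoter windows were searched for the letters GCGCANGCGC, the core of the NRF-1 element of respiratory genes, on both strands. They were found in 13 of 77 windows of the list (16.9%), against 10.4% of windows of measured genes and 4.71% of all 27457. Some members, such as Cyc1, had no window and were not searched. The 4 matches whose gene was at least 1.5-fold lower in the newborn ductus are shown with 30 bases on each side, 5′ to 3′ on the gene's strand, the match in capitals. Atp5po, a subunit of ATP synthase, had a log2 ratio of -0.79 (chr11:44657503-44657572, minus strand, match beginning 59 bases before the start). Dld, the lipoamide dehydrogenase of the pyruvate complex, was at -0.69 (chr6:53652315-53652384, minus strand, 7 bases before). Sucla2, a succinyl-CoA ligase subunit, was at -0.61 (chr15:55161825-55161894, plus strand, 39 bases before), and Uqcrc1, a core protein of complex III, at -0.81 (chr8:118468129-118468198, plus strand, 64 bases before).
Atp5po: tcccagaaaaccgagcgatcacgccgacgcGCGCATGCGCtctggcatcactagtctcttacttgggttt
Dld: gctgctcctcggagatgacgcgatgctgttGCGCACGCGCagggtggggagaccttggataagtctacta
Sucla2: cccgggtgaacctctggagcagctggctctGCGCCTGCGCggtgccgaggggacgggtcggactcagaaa
Uqcrc1: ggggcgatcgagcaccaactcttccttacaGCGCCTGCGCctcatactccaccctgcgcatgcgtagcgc
Among the other windows with a match, Sdha, the flavoprotein of complex II, had a log2 ratio of 0.15. The letters thus also stood before a respiratory gene that was not lower.

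Heart sarcomere genes were lower in newborn ductus, 10 of 22 measured at least 1.5-fold lower and 1 higher, with a median log2 ratio of -0.55. In the fetal pair 17 of 24 were at least 1.5-fold higher and 0 lower, with a median of 0.94. Tnnt2, the cardiac troponin T, stood at 554 in newborn ductus, 1161 in newborn aorta, 2343 in fetal ductus, 797 in fetal aorta and 2402 in oxygen ductus. Newborn ductus was the lowest and the other ductus arrays the highest. Myl7, the atrial myosin light chain, was 2.46-fold lower (1099 against 2709), Tnni3, the cardiac troponin I, 2-fold lower (508 against 1017), and Ttn, the giant protein titin, 2-fold lower (242 against 485). Smpx, a small muscle protein, was 2.92-fold lower at its brightest probe set, but the log2 ratios of its 4 probe sets were -1.54, -0.88, -0.73 and 0.01. Nppa, a hormone of atrial muscle, was the member that went the other way (at least 2.9-fold higher). Tnnc1, which slow skeletal muscle also uses, was bright and differed by a log2 ratio of 0.22. The labels say that vessels were cleaned, and how near to the heart they were cut is not stated.

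Genes of cholesterol synthesis had 3 of 18 at least 1.5-fold lower and 0 higher, with median log2 ratios of -0.28 in the newborn and -0.38 in the fetus. Insig1, the sterol sensor that holds back this pathway, stood at 1078 in newborn ductus, 1793 in newborn aorta, 1263 in fetal ductus, 2192 in fetal aorta and 1250.0 in oxygen ductus, and all of its 4 probe sets were lower. Mvd, which makes isopentenyl pyrophosphate, was 1.94-fold lower (164 against 317), and Idi1, the next enzyme, 1.58-fold lower (329 against 519.5). At both stages the ductus signal of these 3 genes was under that of the aorta. In a list of amino acid stress genes with a median near 0 (2 of 33 at least 1.5-fold higher, 4 lower, median log2 ratio -0.07), the serine synthesis enzyme Psat1 was 3.77-fold lower (253 against 956, 2 of 2 probe sets) and Phgdh 1.84-fold lower (614 against 1130.3, 4 of 4 probe sets).

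**Figure D3:**
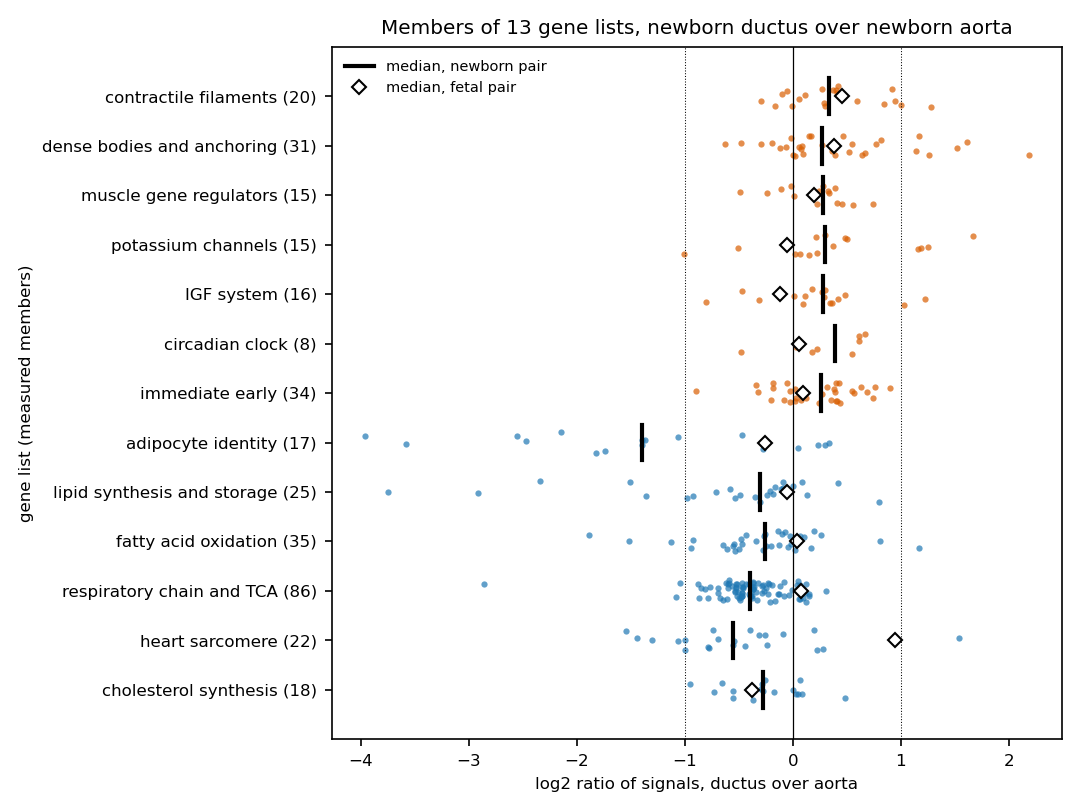
Log2 ratio of signals, newborn ductus over newborn aorta, of each measured member of the 7 lists described as higher and the 6 described as lower, 1 point per gene, with the median of the newborn pair as a bar and that of the fetal pair as a diamond. Adipocyte genes reach furthest down, respiratory genes lie closely below 0, and the heart sarcomere is the list whose newborn and fetal medians lie furthest apart.

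The remaining 27 of 40 lists had a median within 0.25 of 0 on the log2 scale or fewer than 5 measured members. Ribosomal proteins gave 0 of 51 at least 1.5-fold higher and 2 lower (median -0.02), the cell cycle 2 and 2 of 51 (-0.09), and hypoxia with glycolysis 2 and 3 of 36 (-0.04). Endothelial genes had 4 higher and 2 lower of 31 (-0.07), and TGF-beta with BMP signalling 5 and 1 of 37 (0.22). Inside these lists single genes stood out, such as Inhba, an activin subunit (689.5 against 362, 1.9-fold higher), Tgfb3 (1211 against 2074, 1.71-fold lower, 3 of 3 probe sets), and Hspb1, a small heat shock protein bound to actin (6140.2 against 3086, 1.99-fold higher).

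Markers of cell types were summed over the arrays of each vessel. Those of smooth muscle summed to 88198 in newborn ductus and 53501 in newborn aorta, with 5 of 7 at least 1.5-fold higher and 0 lower. Fibroblast markers (110181 and 98404), endothelial markers (8720 and 9287) and leukocyte markers (4463 and 4619) were close between newborn ductus and newborn aorta. Heart muscle markers had 6 of 8 measured at least 1.5-fold lower and 1 higher. Mast cell markers were lower, 896 in newborn ductus against 1678 in newborn aorta, with 3 of 3 measured at least 1.5-fold lower; Cma1, the mast cell chymase, stood at 327 in newborn ductus, 779.9 in newborn aorta, 203 in fetal ductus, 695 in fetal aorta and 109.5 in oxygen ductus. Mesothelial markers summed to 1404 against 2966, which is mostly Msln (mesothelin), at 316 in newborn ductus, 1392 in newborn aorta, 669 in fetal ductus, 674 in fetal aorta and 732 in oxygen ductus. Markers of neighbouring tissues were dim, and their sums were higher in newborn ductus. Those of airway and lung summed to 877 in newborn ductus and 423 in newborn aorta (Sftpc, a surfactant protein, at 286 against 14). Those of cartilage summed to 771 and 590.4. Among them Acan (aggrecan) stood at 262 against 14.4, but the brighter Col9a1 went the other way, at 375 against 466. Those of thymus summed to 199.5 and 39.2 (Cd8a at 153 against 13.5). The Cd8a signal in newborn ductus was barely above the floor (log2 ratio 0.03). No glial or thyroid marker was above the floor in either newborn vessel. The part of these cell types in the other gene differences was not tested.

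**Figure D4:**
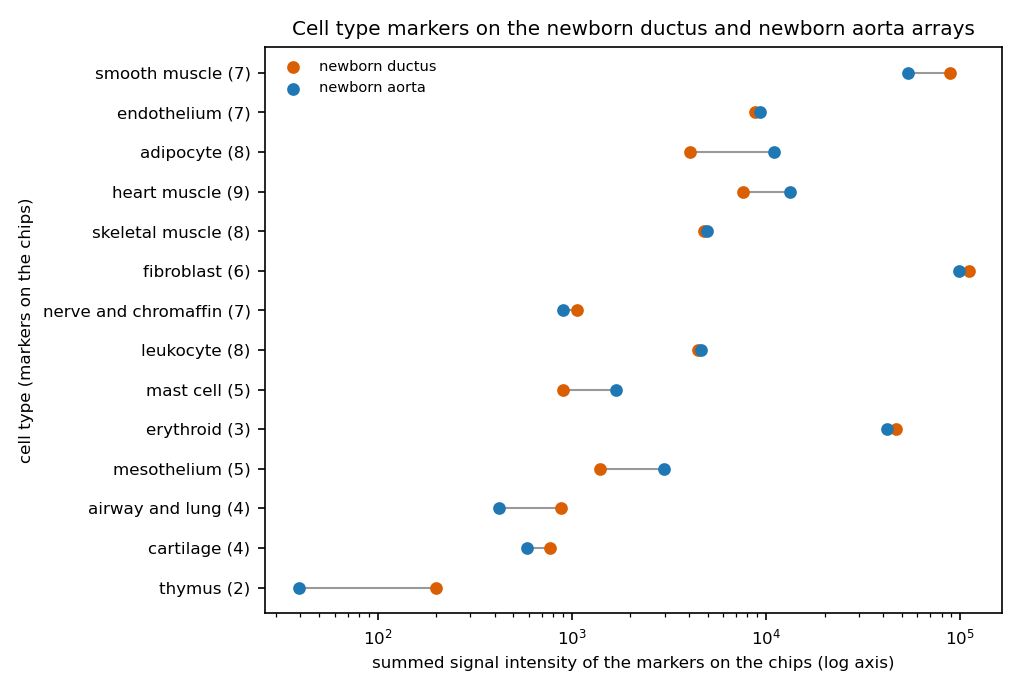
Summed signal of the markers of each cell type carried by the chips (log axis), newborn ductus in orange and newborn aorta in blue, 1 array per chip and vessel. Smooth muscle markers are higher in newborn ductus; adipocyte, heart muscle, mast cell and mesothelial markers are higher in newborn aorta.

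The fetal pair, which shares no array with the newborn pair, was the closest to a second measurement of the vessel difference. Of the 94 genes at least 2-fold higher in newborn ductus, 88 were measured in the fetus, 66 of these had the same sign (75%), and 33 were at least 1.5-fold higher there too (37.5%). Of the 89 lower genes 73 were measured, 40 had the same sign (54.8%), and 10 were at least 1.5-fold lower (13.7%). Nearly as many of these 73 genes, 8, were at least 1.5-fold higher in the fetal ductus. Of the 88 higher genes measured in the fetus, 4 were at least 1.5-fold lower there. Across 7189 genes measured in both pairs 54.0% had the same sign, and the log2 ratios correlated at r = 0.15, a description across genes, which are not independent.

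At both stages 19 genes, of the 88 above, were 2-fold or more higher in the ductus, and 7 of the 73 were lower by as much. The share of all genes 2-fold apart in the fetal pair was not counted. The 19 include Rgs5 (2.77-fold higher in the newborn, 4.65-fold higher in the fetus), Tgfbi, Adamts1, Actg2, Kcnk3, Synpo2 and Atp1b1, a subunit of the sodium pump (2.22-fold higher and 2.95-fold higher). The 7 include Pcp4, Ptgir, Col8a1, Efemp1, Spp1 and Cma1. Some of the 19 rest on a bound at both stages, Satb1, Nppa, R3hcc1 and Tpd52l1 among them. For Cdk5rap3, also of the 19, 2 of its 3 measured probe sets were lower in newborn ductus. For 4 genes the difference was at least 2-fold in opposite directions: Tnnt2, Smpx, Pnoc, the precursor of the peptide nociceptin (379 in newborn ductus, 1344 in newborn aorta, 2546 in fetal ductus, 1247 in fetal aorta and 2358 in oxygen ductus), and Rasa4, a Ras GTPase-activating protein (1009 in newborn ductus, 2093 in newborn aorta, 1302 in fetal ductus, 640.0 in fetal aorta and 1013 in oxygen ductus). For Pnoc this rests on its brightest probe set, since 2 of its 3 measured probe sets were higher in newborn ductus (mean log2 ratio -0.58). For 72 of the 89 lower genes newborn aorta was the highest of the 5 arrays (20.4% of all measured genes), and for 60 of the 94 higher genes newborn ductus was (18.5% of all). The genes chosen for a high newborn aorta had to lean that way, so these counts describe where the differences lie and test nothing.

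**Figure D5:**
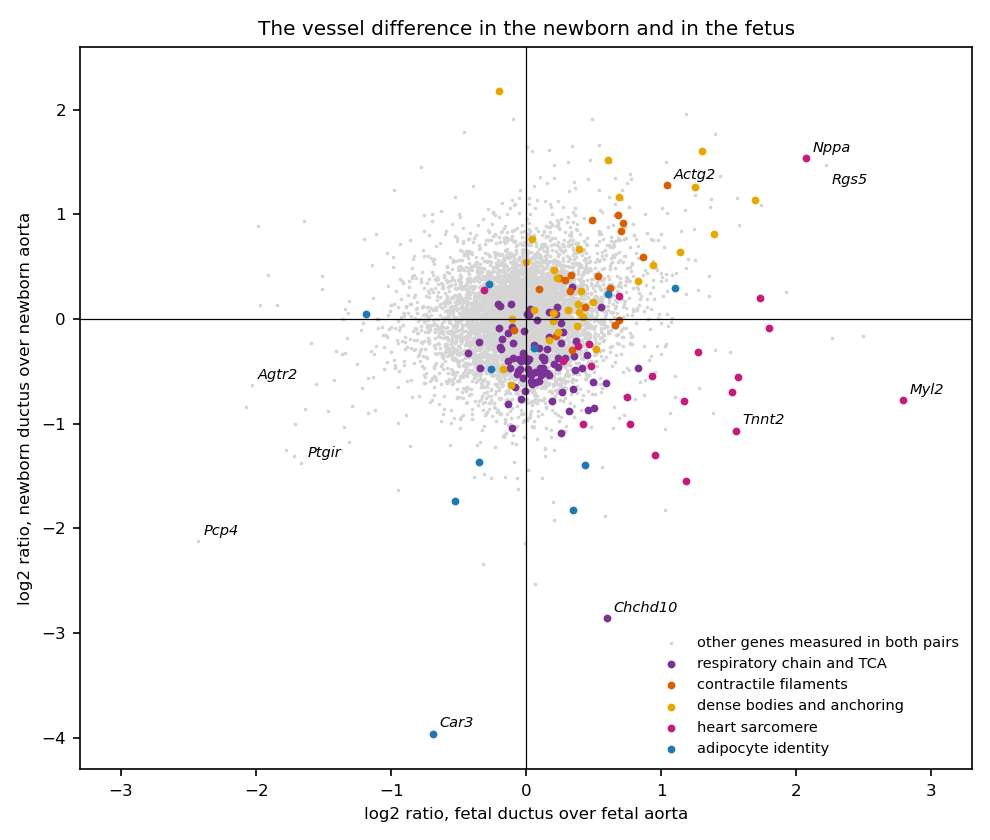
Log2 ratio of newborn ductus over newborn aorta (vertical) against fetal ductus over fetal aorta (horizontal), 1 point per gene measured in both pairs, with 5 gene lists in colour. Contractile and anchoring genes lie mostly in the upper right, heart sarcomere genes in the lower right, and respiratory genes below 0 on the newborn axis and around 0 on the fetal axis.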

How the data were processed

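RNA of perinatal rat vessels was hybridised to Affymetrix chips A, B and C. The deposited values are signal intensity on a linear scale as the authors processed them; the submitters' processing notes name MAS5, with no version, for 4 of the 5 chip A arrays (not the fetal aorta), and for chips B and C the software is not given in the sources used here. Deposited arrays had a mean of 500 to 501 after trimming 2% at each end, so they had been scaled before deposit. Of 26202 probe sets other than 59 controls per chip, 18178 were assigned to 1 gene (18122 found in the RefSeq table by gene number), 391 to several and 7633 to none; 10969 genes were named. Unnamed probe sets gave 42 at least 2-fold higher and 48 lower of 3114 measured.

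Signals were floored at the pooled median of their chip, and log2 ratios were taken with Python 3.11.15 and pandas 2.3.3, after a trial of the same steps on simulated arrays. No test was made. Lists were called higher or lower at a median beyond 0.25 with at least 5 measured members, and their members counted at 1.5-fold. Genes were named by rule: the 15 largest folds each way measured on both arrays, with the brighter signal in the top 25% of its chip and no measured probe set disagreeing in sign; up to 8 each way with a bound; the 6 leading members of each list called, with any member 2-fold the other way; members of other lists 2-fold apart; and 13 genes usual in work on the ductus or its muscle. The text above describes only part of the genes that these rules selected. Further genes were named after their values were seen: Tnnc1, Lep, Agtr1a, Nos3, Ccn1, Srf, Cpt1a, Hspd1, Phgdh, Inhba, Tgfb3, Hspb1, Pnoc, Rasa4, other list members under 2-fold, and the genes of the promoter windows. The members and lists were chosen with earlier results of these data known. All samples of the tables used had labels.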

Additional observations from a re-analysis of the deposited data

Results flagged for a closer look

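The heart sarcomere list and 2 of its members had opposite signs at the 2 stages. The list's median log2 ratio of ductus over aorta was -0.55 in the newborn and 0.94 in the fetus. Tnnt2 had a log2 ratio of -1.07 in the newborn and 1.56 in the fetus, read at 1 probe set. Smpx had -1.54 in the newborn and 1.18 in the fetus, a bound in the fetus because fetal aorta lay under the floor. With 1 array per state and chip the difference between the stages was not tested, and the stages also differed in the way of delivery and in the oxygen of the medium.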

How the results depend on the processing

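The counts of genes and probe sets past 2-fold depended on the floor. With the floor at the 25th percentile of each chip 317 genes were at least 2-fold higher and 268 lower, with 732 and 752 probe sets. With the floor at the 65th percentile the counts were 51 and 43 genes and 92 and 86 probe sets, and the adipocyte median was -0.84. With the chip median added to each signal in place of a floor they were 52 and 45 genes and 101 and 106 probe sets. By chip alone the genes were 30 higher and 47 lower on A, 47 and 37 on B, and 32 and 21 on C, and the probe sets 62 and 87, 66 and 63, and 50 and 30.

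Medians of the contractile filament, respiratory, heart sarcomere and adipocyte lists stayed beyond 0.25 in the same direction under all 7 alternatives to the list analysis. Those of 9 lists came within 0.25 under at least 1: immediate early genes under 6 (0.06 to 0.25), fatty acid oxidation under 3 (-0.22 to -0.25), anchoring (0.15 and 0.24), IGF system (0.18 and 0.20) and muscle regulators (0.19 and 0.22) under 2, and cholesterol (-0.20), potassium channels (0.24), lipid (-0.23) and clock genes (0.18) under 1. Contraction signalling passed 0.25 with the higher floor (0.27). Among named genes at least 1.5-fold apart in the main analysis, the only change of sign was Smpx, at 0.014 with unshared probe sets alone. By more than the within-gene SD, 52 of 141 named genes moved with the chip median added, 45 of 134 with the 65th percentile floor, 37 of 141 with the mean over probe sets, 16 of 141 with the 25th percentile floor, 15 of 125 with unshared probe sets, 1 of 141 with quantile normalisation and 0 with centring. No paired analysis was possible because each state had 1 array per chip. Between 49.5% and 50.8% of probe sets exceeded the floor on a newborn array. A share near 50% follows from setting the floor at the pooled median, so it is not a rate of detection.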
